A study of Mus musculus with 8 samples.

Results

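Vascular smooth muscle nuclei of the adult mouse heart were described here across 5 single-nucleus RNA-seq libraries. A nucleus was counted as vascular smooth muscle when it had at least 200 genes, under 5% mitochondrial UMIs (unique molecular identifiers, the counted molecules) and under 2% of its UMIs from the cardiomyocyte genes Ttn, Ryr2 and Trdn together. It also had no UMI of Pdgfra, Cdh5 or Csf1r, at least 1 UMI of Myh11, and at least 2 of the 6 genes Acta2, Lmod1, Itga8, Tagln, Slc38a11 and Dgkb. The rule found 576 nuclei among the 37767 that passed the filters on genes and mitochondrial UMIs, or 1.53%. These 7 smooth muscle genes and the excluded genes are therefore a description of the nuclei and no finding.

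The study compared hearts labelled WT- non Tg (nTg) with hearts labelled Tg-ccna2, from animals that constitutively express a cyclin A2 transgene, in both sexes. The libraries used are 1 nTg female, 2 Tg-ccna2 females and 2 Tg-ccna2 males, so no nTg male enters any comparison. All are nuclei of adult mouse heart. The animals' age in weeks, their strain and the promoter that drives the transgene are not given in the sources used here. The labels do not say that the libraries came from separate animals, so p-values measure only the spread between libraries. A further 3 libraries were not analysed here. Values for single libraries are always given in 1 order: nTg female 1 first, then Tg female 1 and Tg female 2, and then Tg male 1 with Tg male 2 last.

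Against the labels, Ccna2 was read at 181 CPM (UMIs per 1000000 UMIs) in the library labelled nTg female 1 and at 0.751 in the library labelled Tg female 1, over all barcodes. The other 3 libraries, labelled Tg, had 275, 88.1 and 62.7. Genotypes are therefore named only as the labels give them, and nothing is drawn from the direction of a genotype difference. The sex labels matched Xist, at 1179, 1431 and 1210 CPM in the female libraries and at 7.69 and 0.699 in the male ones. The 5 libraries held 25045167 to 38593706 UMIs each. The smooth muscle nuclei held 1871450 UMIs in all, from 213781 to 673357 per library, and their median was 2924.5 UMIs per nucleus, against 2252 in pericytes. No barcode was shared between libraries among the 576 nuclei.

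Vascular smooth muscle cells wrap arteries and set their diameter by contraction. Calcium entry through voltage-gated channels activates calmodulin and myosin light chain kinase, which phosphorylates the regulatory light chain of smooth muscle myosin, and myosin phosphatase reverses this. The contractile genes are known targets of serum response factor (SRF) and its cofactor myocardin, which act at a sequence called the CArG box. Pericytes are the neighbouring mural cells of capillaries and share much of this gene programme.

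The CArG box was looked for in the window from 250 bases before to 50 bases after each gene's start in RefSeq (GRCm38.p6). The box reads alike on both strands, and each box printed below is CC, then only A or T, then GG. A box outside the window or of another spelling was not counted. A gene without a box here may therefore have one elsewhere. It is in 1.63% of all 32851 mouse windows, and 1.81% of the 27025 genes have it in a window. Among myosin and its regulators, 2 of the 12 genes with a window held a box, and among thin filament and cytoskeletal genes 1 of 16. Among SRF and myocardin regulators 3 of 13 held one, among channels 1 of 21, among TGF-beta, BMP and PDGF genes 1 of 17 and among integrins and adhesion genes 1 of 19. No window held one in the lists of receptors (23 genes), cyclic nucleotide enzymes (16), Notch (13), matrix (19), modulated (10), glucocorticoid-responsive (15) and clock genes (15). The 5 stretches below belong to genes that were at least 2-fold higher in smooth muscle nuclei than in pericytes in all 5 libraries. They are shown because the genes are known or described below as part of the smooth muscle side and each has a box near its start. Each is 90 bases, 5′ to 3′ on the gene's strand, with the box in capitals. A match describes the letters in the window and is not a measured binding site.

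Myl9, chr2:156775263-156775352, plus strand: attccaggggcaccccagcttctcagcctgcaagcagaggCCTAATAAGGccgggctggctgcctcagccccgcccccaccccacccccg
Myl6, chr10:128493010-128493099, minus strand: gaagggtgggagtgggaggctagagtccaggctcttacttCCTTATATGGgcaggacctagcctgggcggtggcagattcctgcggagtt
Dmd, chrX:82948732-82948821, plus strand: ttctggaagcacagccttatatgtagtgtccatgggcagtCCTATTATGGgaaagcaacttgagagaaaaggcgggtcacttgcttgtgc
Trpc6, chr9:8543980-8544069, plus strand: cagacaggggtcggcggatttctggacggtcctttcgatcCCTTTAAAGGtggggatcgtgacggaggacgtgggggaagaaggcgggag
Fhl1, chrX:56779541-56779630, plus strand: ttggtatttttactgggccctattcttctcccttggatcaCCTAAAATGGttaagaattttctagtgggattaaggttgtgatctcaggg

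The box starts 161 bases upstream of the annotated start in Myl9 and 50 bases upstream in Myl6. In Dmd it starts 98 bases upstream, in Trpc6 122 and in Fhl1 102. The boxes of the light chain genes Myl9 and Myl6 differ in sequence, and no pair of the 5 boxes is identical.

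The detection of the genes of the rule is fixed by the choice of nuclei and is given to describe them. Acta2, smooth muscle actin, was detected in 80.4% of them, against 2.01% of 2141 pericytes and 2.24% of 6149 endothelial nuclei. The leiomodin gene Lmod1 was detected in 72.6% of smooth muscle nuclei and 1.31% of pericytes, and Tagln, the actin-binding transgelin, in 72.4% and 1.17%. The kinase gene Dgkb separated the types least, with 91.3% and 37.5%. Myh11 itself, the smooth muscle myosin heavy chain, had a UMI in 12.1% of pericytes and 1.87% of endothelial nuclei, and the median depths of these types were 2252 and 2283 UMIs. Pericytes here are the nuclei outside the smooth muscle set that had Abcc9 and at least 2 of 6 further pericyte genes, among them Kcnj8, Rgs5, Pdgfrb, Vtn and Steap4, under the same exclusions.

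The border of the rule ran through nuclei with pericyte genes. Just outside it were 152 nuclei with Myh11 and 1 of the 6 further genes, and 91.4% of them met the pericyte rule. Just inside were 80 nuclei with 2 of the 6 genes, of which 76.3% met it as well. Among the 216 nuclei with all 6 genes 0.463% met it. Abcc9, a subunit of the ATP-sensitive potassium channel, was read at 2706 CPM in the nuclei just inside and at 16.6 in those with all 6. Myocd went the other way, with 13.3 just outside, 120 just inside and 670 with all 6. In all, 97 of the 576 nuclei (16.8%) also met the pericyte rule, and 32 were called doublets by scrublet but kept. Nuclei with 4 or more of the 6 genes, most of the set, were high in Myocd, which the rule did not use, and nuclei with few of the 6 genes carried mainly pericyte genes.

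**Figure D1:**
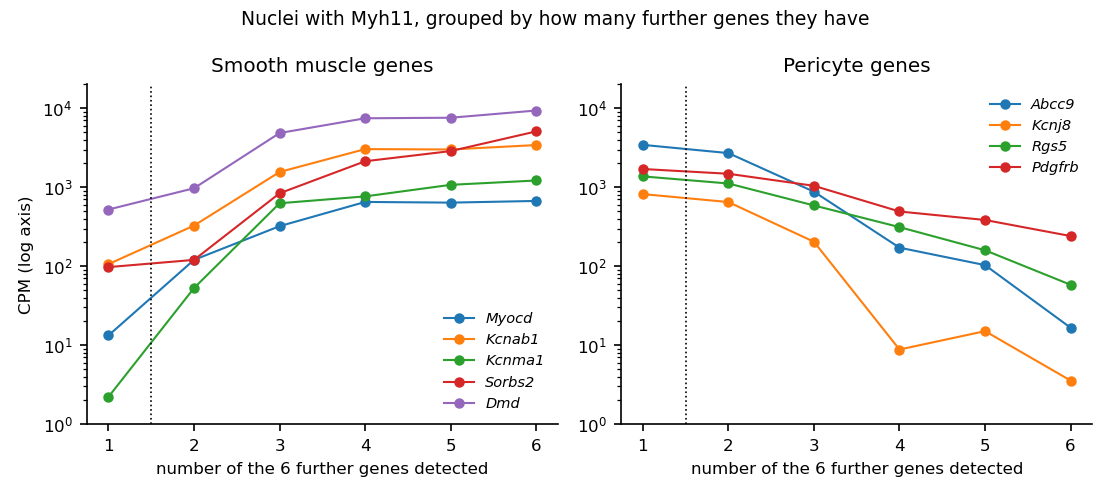
CPM (log axis) of 5 smooth muscle genes (left) and 4 pericyte genes (right), summed over nuclei with Myh11 grouped by the number of the 6 further genes detected. The dotted line is the limit of the rule. The smooth muscle genes are low at 1 and 2 further genes, with Myocd at 13.3 and 120, while Abcc9 goes from 3439 at 1 to 16.6 at 6.

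Levels are in CPM of the summed smooth muscle nuclei of a library. They are compared between libraries and with pericytes, and not between genes, since no per-length scale is available. A gene was taken as higher or lower than in pericytes when the difference was at least 2-fold in the same direction in all 5 libraries. Of the 4419 genes at 50 CPM or more in either type and outside the rules, 7.83% were higher in smooth muscle nuclei and 6.81% lower by this criterion. The median log2 ratio over these genes was -0.20. A fold below is the median over the 5 libraries, with the lowest and highest library in parentheses. Because the nuclei were chosen by correlated genes, these ratios are descriptions and carry no test.

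Among myosin and its regulators 7 of 12 genes at that level were 2-fold higher in smooth muscle nuclei and none lower, with a median log2 ratio of 1.71. Myl9 (chr2:156775420-156781658), the regulatory light chain, was at 468, 398, 444, 490 and 524 CPM, and its median ratio to pericytes was 12.1-fold, from 8.25 to 31.3. Myl6, the essential light chain, was at 585, 539, 547, 478 and 567, which is 4.45-fold above pericytes. Myh11 (chr16:14194535-14291372), which every nucleus had by the rule, was at 3972, 3766, 3265, 4190 and 4488. Both males lay just above all females for Myh11, as they did for 12.4% of the genes tested between the sexes, and the lowest value was in Tg female 2.

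The enzymes that switch the light chain on and off were higher too. Mylk, myosin light chain kinase, was at 1150, 1145, 879, 1169 and 1193 CPM, 3.16-fold above pericytes (3.13 to 4.49). Ppp1r12a, the targeting subunit of myosin phosphatase, was at 2382, 2309, 1969, 2738 and 2426 and had a narrow ratio of 4.76-fold (4.53 to 5.03). Its relative Ppp1r12b was 3.96-fold higher, and the kinase Rock1 2.19-fold (2.01 to 2.35). The upstream GTPase Rhoa, the kinase Rock2 and the non-muscle myosin Myh9 did not differ by 2-fold, with median ratios of 0.932, 1.04 and 1.36. The embryonic non-muscle myosin Myh10 was the most uneven member, at 141, 165, 51.5, 53.4 and 69.1, so nTg female 1 and Tg female 1 lay well above the other libraries.

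The thin filament and its anchors were mostly on the smooth muscle side. Of 17 genes, 13 were 2-fold higher than in pericytes in all libraries and none lower, and the median log2 ratio was 2.59. Acta2 (chr19:34241090-34255590), Tagln and Lmod1 helped choose the nuclei, so their levels are given without a ratio. Acta2 was at 1610, 1782, 1749, 1326 and 1953 CPM, a mean of 1684 ± 234 (SD, n = 5). Tagln was at 700, 933, 800, 748 and 989, and Lmod1, which starts actin filaments, at 828, 751, 524, 842 and 855. Cnn1, the actin-binding calponin, was at 153, 184, 182, 126 and 244, and its whole pericyte sum held 1 UMI. Actg2, the enteric smooth muscle actin, was at 56.2, 74.3, 51.5, 116 and 69.1, also with 1 pericyte UMI. Female and male ranges overlapped for these genes except Lmod1, where both males lay just above all females.

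Tropomyosin genes lie along the same filament. Tpm1 was 4.18-fold above pericytes (3.28 to 4.45) at 1603, 1611, 2156, 1782 and 1946 CPM, and Tpm2 6.12-fold at 312, 264, 304, 267 and 324. Cald1, caldesmon, was 1.67-fold (1.38 to 1.76) and so short of 2-fold in every library. Flna, the actin crosslinker filamin A, was at 1580, 1798, 1908, 1496 and 1528, between 10.0- and 12.7-fold above pericytes. Synpo2, a Z-disc and dense body protein, was at 1769, 2070, 1385, 1600 and 1779, a ratio of 7.96. Sorbs2, an adaptor at adhesion sites, was at 3474, 3563, 2549, 3231 and 3335 against 14.8 to 98.7 in pericytes. Actn1, Dstn and Smtn, which bundle, sever or bind actin, were 7.58-, 7.09- and 4.40-fold higher. The intermediate filament gene Des was at 92.0, 101, 117, 167 and 156, with a median ratio of 1.44.

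Fewer of the transcriptional regulators passed the 2-fold criterion. Of 11 SRF and myocardin regulators, 2 were 2-fold higher, Myocd and Fhl1, none was lower, and the median log2 ratio was 0.08. Myocd (chr11:65176561-65269989) was at 483, 704, 468, 509 and 549 CPM, a mean of 543 ± 95.3 (SD, n = 5), against 2.00 to 27.7 in pericytes. Srf itself was near the detection limit, at 15.3, 8.91, 4.68, 18.9 and 3.64. The related cofactors Mrtfa and Mrtfb had median ratios of 0.815 and 1.52, and Mef2c, a MADS-box factor, 1.39. Fhl1, a LIM-domain protein, was at 148, 312, 98.2, 101 and 98.2, with its highest value in Tg female 1.

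Among 20 channel, pump and exchanger genes 8 were higher and 1 was lower, with a median log2 ratio of 1.01. Cacna1c, the pore of the L-type calcium channel, was at 2214, 2204, 1974, 2301 and 2051 CPM, which is 1.28-fold above pericytes (1.09 to 1.35). Its auxiliary subunit Cacnb2 was at 2290, 2030, 1459, 2115 and 2182 and 3.28-fold above. The second L-type pore Cacna1d was at 97.1, 235, 192, 251 and 160, 3.44-fold above. Slc8a1, the sodium-calcium exchanger, was at 1894, 2811, 1885, 2046 and 2441, and Atp2b4, a plasma membrane calcium pump, was 4.85-fold above pericytes. Cacna1c was thus at a like level in both types, and its subunit and both calcium extrusion genes were higher in smooth muscle nuclei in all 5 libraries.

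Several potassium channel genes were far apart between the mural types. Kcnma1 (chr14:23289431-24014491), the pore of the large-conductance calcium-activated channel, was at 1299, 1007, 566, 836 and 789 CPM, while the pericyte sums held 9 UMIs in all. Its smooth muscle subunit Kcnmb1 had a mean of 46.1 ± 4.62 (SD, n = 5). Kcnab1, a beta subunit of voltage-gated channels, was at 2763, 3001, 2054, 3033 and 2673 and 37.0-fold above pericytes (27.4 to 46.2). Among the pericyte potassium channel genes, Kcnj8 was at 97.1, 71.3, 46.8, 129 and 131 against 676 to 1096, and the values in smooth muscle nuclei include the nuclei at the border of the rule.

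The gene on the pericyte side was a calcium release channel. Itpr2, an IP3 receptor, was at 89.5, 87.6, 56.1, 84.9 and 87.3 and 2.20-fold lower than in pericytes by the median. Ano1, a calcium-activated chloride channel, was at 230, 316, 594, 613 and 593 against 831 to 1150 in pericytes, and did not reach 2-fold in all libraries. Trpc6, a receptor-operated cation channel, was on the smooth muscle side, at 107, 190, 243, 145 and 124 and 3.53-fold higher (2.49 to 11.7). Ano1 separated libraries, with nTg female 1 and Tg female 1 below the other 3.

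**Figure D2:**
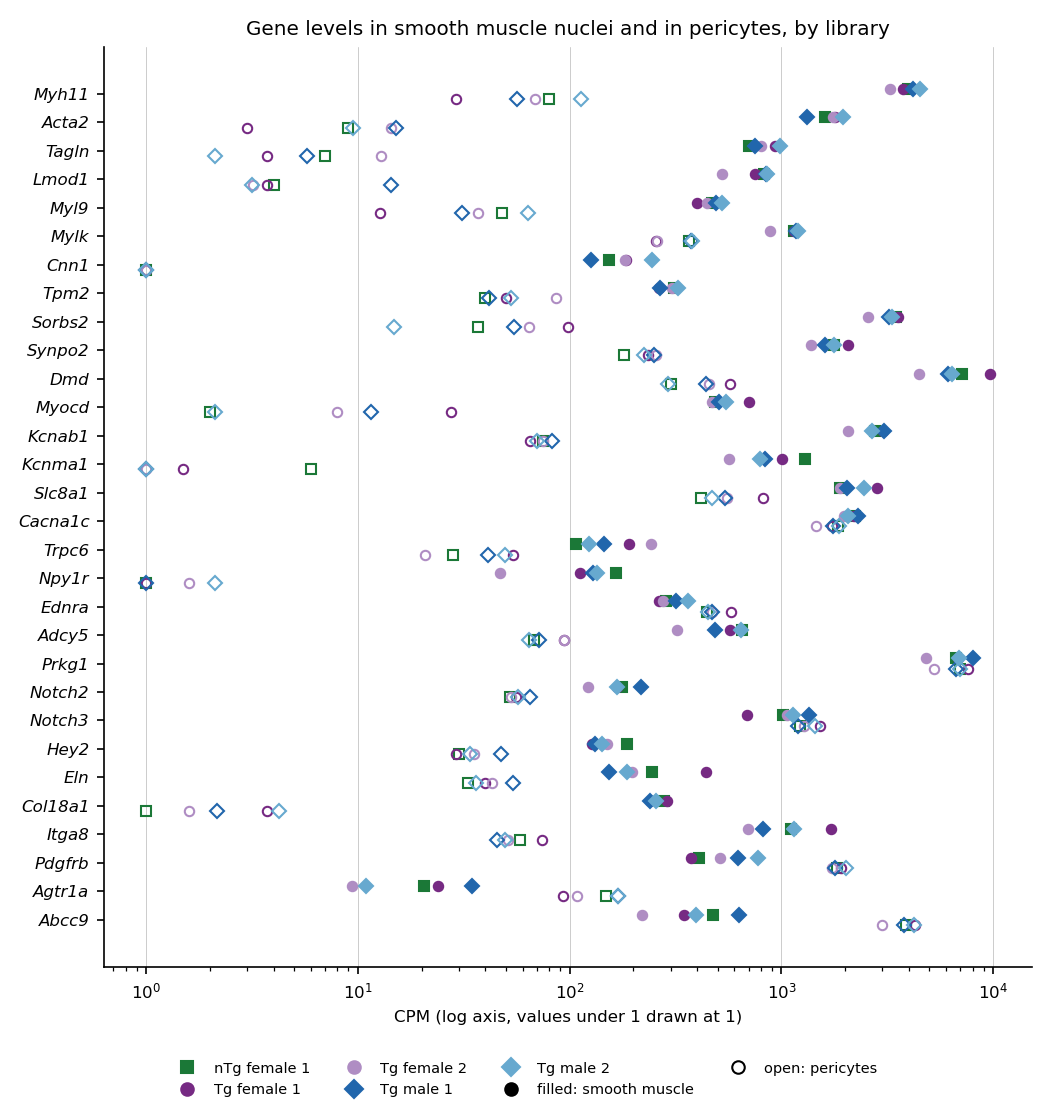
CPM (log axis) of selected genes in the summed smooth muscle nuclei (filled) and summed pericytes (open) of the 5 libraries, with 1 symbol per library. Contractile genes and Kcnma1 are far apart between the types in every library, Cacna1c, Prkg1 and Notch3 overlap or nearly so, and Pdgfrb, Agtr1a and Abcc9 are lower in the smooth muscle nuclei.

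Most receptor genes were sparse: 7 of 29 listed constrictor and dilator receptors reached the level needed for a ratio. Npy1r, a neuropeptide Y receptor, was 2-fold higher, at 166, 111, 46.8, 129 and 135 CPM with 5 UMIs in all pericyte sums. Agtr1a, the angiotensin II receptor, was lower, at 20.4, 23.8, 9.36, 34.6 and 10.9 against 92.7 to 170 in pericytes. Ednrb, an endothelin receptor, was lower too, at 10.2, 16.3, 0, 9.43 and 3.64 against 73.0 to 110. Ednra, the main endothelin receptor of smooth muscle, was at 286, 264, 276, 317 and 360, 0.641 times the pericyte level. S1pr3, a sphingosine-1-phosphate receptor, ranged from 65.3 to 182. The alpha-1 adrenoceptor genes Adra1a and Adra1d were at most at 10.4 and 3.64, so their levels could not be set apart at this depth.

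Cyclic nucleotide signalling relaxes smooth muscle. Of its 16 genes 2 were higher, 2 lower and 12 neither, with a median log2 ratio of -0.17. Prkg1, the cGMP-dependent kinase, was at 6644, 6799, 4827, 8065 and 6867 CPM, a ratio of 0.953 (0.890 to 1.21). The nitric oxide receptor subunit Gucy1a1 had a ratio of 1.13, its paralog Gucy1a2 0.473, and the cGMP phosphodiesterase Pde5a 1.46. The adenylyl cyclase gene Adcy5 stood apart, at 649, 573, 323, 484 and 644 and 6.72-fold above pericytes (3.42 to 9.97). Adcy9 was 2.50-fold higher and Adcy3 2.71-fold lower. The cAMP phosphodiesterase Pde8a was lower, at 20.4, 22.3, 18.7, 18.9 and 10.9, by a median of 8.37-fold.

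Its paralog Pde8b was the gene furthest on the pericyte side among those outside the lists, 14.1-fold lower. Its levels were 89.5, 62.4, 60.8, 66.0 and 109 CPM in smooth muscle nuclei and 879 to 1065 in pericytes. Both Pde8 genes were thus on the pericyte side in all 5 libraries, while the smooth muscle side held Adcy5.

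Notch signalling from endothelium specifies mural cells. Notch3, the main mural receptor, was at 1017, 686, 1062, 1345 and 1135 CPM, 0.833 times the pericyte level (0.449 to 1.12), with the lowest value in Tg female 1. Hey2, a Notch target repressor of arteries, was higher, at 187, 128, 150, 132 and 142 and 4.26-fold above pericytes (2.78 to 6.22). Notch2 was 2.97-fold higher and Notch1 3.47-fold lower. The target Heyl and the ligand Jag1 had ratios of 0.674 and 0.773. Of 10 Notch genes 2 were higher and 1 was lower.

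The higher growth factor genes were ligands and a carrier of a ligand. Of 16 TGF-beta, BMP and PDGF genes 4 were higher and 1 was lower, with a median log2 ratio of 0.94. Pdgfd, a ligand of the beta receptor, was at 463, 557, 337, 380 and 360 CPM, 8.43-fold above pericytes (7.01 to 16.2). Bmp6 was 7.92-fold higher and Pdgfa 2.27- to 4.88-fold. Ltbp1, which stores latent TGF-beta in the matrix, was at 902, 1296, 561, 842 and 917, 6.89-fold (6.41 to 7.58), while Ltbp4 was 3.75-fold lower. The receptor Pdgfrb, one of the genes of the pericyte rule, was at 409, 376, 515, 625 and 775, 3.36-fold below pericytes.

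Matrix genes lay on both sides. Of 19 elastic and basement membrane genes 5 were higher and 3 lower, with a median log2 ratio of -0.29. Eln, elastin, was at 245, 438, 196, 154 and 185 CPM, 5.15-fold above pericytes (2.85 to 11.1), with the highest value in Tg female 1. Col18a1 was nearly even over libraries, at 279, 287, 239, 239 and 255 against 13 UMIs in all pericyte sums. The laminin gene Lama5 was at 171, 162, 206, 163 and 127, and the basement membrane collagen gene Col4a5 at 332, 350, 131, 182 and 215. Npnt, a ligand of the integrin that Itga8 encodes, was at 115, 151, 28.1, 69.1 and 61.8 with 1 pericyte UMI. Fbn1, Lamb1 and Nid1 were 2.78-, 4.93- and 3.51-fold lower, and the major collagen IV gene Col4a1 had a ratio of 0.581.

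Of 19 integrin and adhesion genes 3 were higher and none lower. Dmd (chrX:82948870-85206141), dystrophin, which links actin to the basement membrane, was at 7147, 9637, 4467, 6145 and 6376 CPM, 16.9-fold above pericytes (9.78 to 23.7). Tg female 1 was the highest library and Tg female 2 the lowest. Itga3 was at 61.3, 69.8, 32.7, 44.0 and 76.4 with 4 pericyte UMIs, and the caveolar gene Cav1 was 4.68-fold higher. The sarcoglycan gene Sgcd was at 141, 898, 60.8, 40.9 and 40, so Tg female 1 alone was high.

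Of 20 genes of modulated or dedifferentiated smooth muscle 5 reached the level needed, none was 2-fold apart in all libraries, and the median log2 ratio was -0.79. Mgp, matrix Gla protein, was at 355, 404, 524, 233 and 244 CPM, 0.461 times the pericyte level. Spp1, osteopontin, had no UMI in the smooth muscle nuclei of any library, and Klf4 was at 3.14 to 15.3. The glucocorticoid-responsive genes Fkbp5 and Zbtb16 varied between libraries in both types. Fkbp5 was at 169, 29.7, 42.1, 189 and 266 in smooth muscle nuclei and at 467, 136, 153, 414 and 675 in pericytes, lower in Tg female 1 and Tg female 2 in both. Zbtb16 had the same low libraries, with 953, 355, 421, 845 and 920 in smooth muscle nuclei and 1210, 226, 363, 1259 and 1157 in pericytes. Among 10 clock genes Hlf and Rora were lower than in pericytes and none was higher.

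Genes outside the lists were named by size of the ratio. Cdh6, a cadherin, was at 353, 313, 341, 475 and 258 CPM with 2 UMIs in all pericyte sums. Ntrk3, a neurotrophin receptor, was at 358, 389, 164, 226 and 393 with 8 UMIs. Susd5 was at 207, 208, 145, 185 and 160 and had no UMI in any pericyte sum. Enah, an actin-polymerizing protein, was at 976, 1187, 819, 974 and 967, 73.2-fold above pericytes (41.8 to 131). Olfr78, an olfactory receptor gene, was at 268, 303, 524, 471 and 331 with 11 pericyte UMIs, and it overlaps Olfr560, so its reads are uncertain. The antisense gene A330015K06Rik was at 1283, 1393, 2039, 1710 and 1418, but it lies inside Kcnab1 and the counting by strand is not stated. The genes Map3k7cl, Grip2, Adamtsl1, Ccdc3 and Thsd4 were higher as well, with 3, 10, 25, 22 and 44 pericyte UMIs.

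The smooth muscle nuclei were not uniform. Clustering them on 1500 variable genes gave 8 clusters, which are described by their leading genes and left unnamed. A gene said to lead a cluster is among its leading genes by ratio to the other nuclei and need not be the first. Those genes defined the clusters, so their differences are no test, and cluster sizes are not compared between groups. Cluster 1, with 140 nuclei, had the highest levels of 3 contractile programme genes, with Myh11 at 5766, Acta2 at 3114 and Myocd at 902 CPM. Its leading genes included Ccn1, a matrix-associated signalling protein, at 442 and Csrp2, a muscle LIM protein, at 2028.

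Cluster 2, with 136 nuclei, was led by the muscarinic receptor gene Chrm3 at 983 CPM, Cacna1d at 585, Trpc6 at 445 and Olfr78 at 945, together with Ano1 at 887 and Kcnt1 at 211. Its Myh11 level was 3809 and its Kcnab1 level 4608. Cluster 3, with 89 nuclei, was led by Sox6 at 1444, Wnt5b at 662, Corin at 593 and Fat3 at 407, with Myh11 at 4848. Chrm3, Olfr78 and Wnt5b had low values in cluster 5, where Chrm3 and Trpc6 were at 0. Receptors and channels thus varied between clusters that all held Myh11 at 3809 CPM or more.

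Cluster 5, with 55 nuclei, had Pcdh7 at 6750 CPM, Nox4, which makes hydrogen peroxide, at 2220, Sgcd at 2170, Itgbl1 at 1379 and the BMP receptor gene Bmpr1b at 622. It also held Itga8 at 3684 and Eln at 931, with Myh11 at 4505 and Notch3 at 89.6. Of its nuclei 44 came from Tg female 1 and 9 from nTg female 1, with 0, 1 and 1 in the other libraries. At a lower resolution of 0.5, which gave 6 clusters, 42 of these 55 nuclei joined 21 of the 23 nuclei of cluster 7 and 13 joined cluster 1, while clusters 4 and 6 merged. With so few libraries, a cluster of mostly 1 library may be that library. Tg female 1 also had the highest Sgcd and Eln and the lowest Notch3 of the 5 libraries, and the part of cluster 5 in those values was not tested.

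Clusters 4 and 6 carried pericyte genes. In cluster 4, with 79 nuclei, 57.0% met the pericyte rule, Rgs5 was at 988 and Myh11 at 1820 CPM. In cluster 6, with 42 nuclei, all met it: Abcc9 was at 4149, Kcnj8 at 1049, Myh11 at 434, Acta2 at 59.9 and Myocd at 0. Cluster 7, with 23 nuclei, was led by the endothelial genes Pecam1 at 483 and Ptprb at 448 and by Ttn at 3840, and 65.2% of its nuclei were scrublet calls. Cluster 8, with 12 nuclei, had Cdh19 as its first leading gene, at 476. The fibroblast gene Dcn was further down its leading genes, at 1498, and 58.3% of its nuclei were scrublet calls. Clusters 4 and 6 to 8 therefore held the nuclei whose leading genes go against the name.

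**Figure D3:**
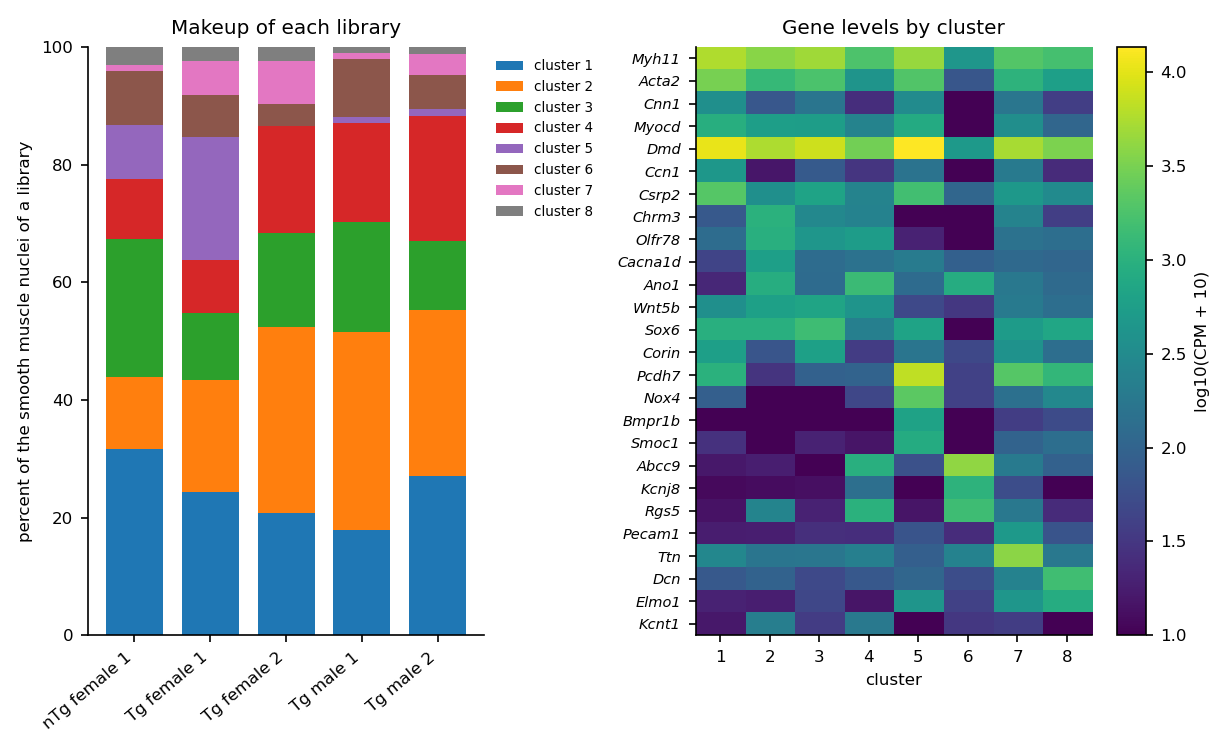
Left, the percent of each library's smooth muscle nuclei in each of the 8 clusters. Right, log10 of CPM plus 10 for selected genes in the summed nuclei of each cluster. Cluster 5, led by Pcdh7 and Nox4, is mostly in nTg female 1 and Tg female 1, and cluster 6 has Abcc9 at 4149 with Myocd at 0.

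Leading genes of the clusters were among those that varied most between nuclei beyond counting error. Overdispersion is the variance of depth-scaled counts above Poisson, divided by the squared mean. Across libraries the most overdispersed were Abcc9, Pcdh7, Tshz2, Lama2 and Nrp1, with median overdispersion of 5.90, 4.45, 3.78, 3.44 and 2.95. Chrm3 and Rgs5 were also among the first 10, at 2.27 and 2.91. These values include the border nuclei described above.

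The share of smooth muscle nuclei was 1.57%, 2.16%, 1.17%, 1.27% and 1.24% of the nuclei that passed. The exact 95% binomial intervals were 1.27 to 1.91, 1.88 to 2.47, 0.933 to 1.45, 1.04 to 1.54 and 0.991 to 1.53, and they cover counting error only. Female libraries averaged 1.63% ± 0.497 (SD, n = 3) and male libraries 1.26% ± 0.0229 (SD, n = 2). The difference of 0.378 percentage points did not pass an exact two-sided permutation test (p = 0.5), and with 3 against 2 libraries the smallest p is 0.1. The groups overlapped, since Tg female 2 was below both males. Without Tg female 1 the difference was 0.114.

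**Figure D4:**
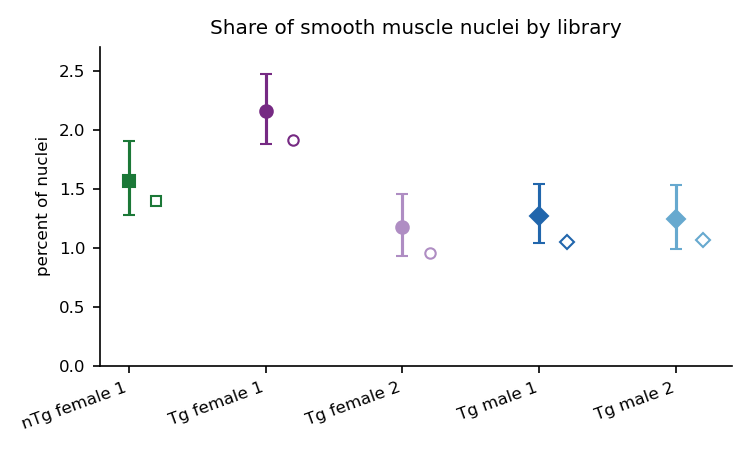
Percent of nuclei that passed the filters counted as vascular smooth muscle in each of the 5 libraries (filled, with exact 95% binomial intervals), and the same with at least 3 of the 6 genes required (open). Tg female 1 is highest at 2.16%, and the other 4 lie between 1.17% and 1.57%.

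Female and male smooth muscle nuclei were compared over the library sums with edgeR's quasi-likelihood test, 3 libraries against 2, over 6014 genes. At a Benjamini-Hochberg adjusted p under 0.05, 7 genes (0.116%) differed, 3 higher (0.0499%) and 4 lower (0.0665%) in female libraries. The share with an unadjusted p under 0.05 was 6.75%, with 3.87% higher and 2.88% lower. The sex chromosomes gave 5 of the 7. Xist, which silences an X chromosome, was at 1130, 1479, 1169, 0 and 0 CPM, at least 261-fold higher in female libraries against a floor of 3 counts over the males (adjusted p = 6.26e-07). Its overlapping antisense gene Tsix was at 672, 1054, 978, 6.29 and 0 (edgeR adjusted p = 3.06e-06), and reads of the pair cannot be told apart. The Y-linked Uty was at 0, 0, 0, 141 and 149 (edgeR adjusted p = 6.74e-05).

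Ddx3y, a Y-linked helicase, was at 0, 0, 0, 91.1 and 113 CPM (edgeR adjusted p = 0.000596), and Eif2s3y, a Y-linked translation factor, at 0, 0, 0, 107 and 40 (edgeR adjusted p = 0.0153). Kdm5d had the same pattern at 0, 0, 0, 37.7 and 32.7 without passing (edgeR adjusted p = 0.164). Kdm6a, an X-linked demethylase that escapes inactivation, was at 228, 189, 201, 104 and 80.0, with a log2 difference of 1.17 (edgeR adjusted p = 0.189). The Ddx3y call was lost without Tg male 2, with a log2 difference of -8.19 against -8.25 (edgeR adjusted p = 0.0878), and that of Eif2s3y without Tg female 1, with -7.47 against -7.80 (0.0505). Eif2s3y fell below the count filter, and so was not tested, without Tg male 1, with at least 3 of the 6 genes required and without clusters 4 and 6. All females were above both males for Kdm6a, and its unadjusted edgeR p was under 0.05. It did not pass after adjustment over all genes tested.

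Elmo1 and Kcnt1 were the autosomal calls. Elmo1 (chr13:20090596-20608353), a scaffold that activates the GTPase Rac, was at 171, 183, 65.5, 18.9 and 25.5 CPM, higher in females by 2.74 ± 0.46 on the log2 scale (SE, edgeR adjusted p = 0.0398). The groups did not overlap, but nTg female 1 and Tg female 1 were far above Tg female 2. Fibroblasts had 577 to 863 and endothelial nuclei 912 to 1289, against 40.2 to 105 in pericytes. Within the smooth muscle nuclei Elmo1 was highest in cluster 8 at 854, cluster 7 at 430 and cluster 5 at 418, and at most at 36.4 in the other 5. In Tg female 1, 70 of its UMIs lay in cluster 5, 27 in cluster 7 and 20 in cluster 8, with at most 3 in any other cluster. In nTg female 1, 39 lay in the 3 nuclei of cluster 8, 14 in cluster 5 and 3 in cluster 7, with at most 9 in any other. In Tg female 2, 11 lay in cluster 7 and at most 2 in any other. Tg male 1 had 3 in cluster 7 and 2 in cluster 8, and Tg male 2 had 4 in cluster 7, with at most 1 in any other. The log2 difference was 3.49 without clusters 7 and 8 (edgeR adjusted p = 0.149), 2.78 without clusters 4 and 6 (0.121) and 2.27 without cluster 5 (0.0263). The difference stayed above 2-fold without each of these sets, although the call was lost without the first and the second. Cluster 5 and clusters 7 and 8 were left out separately, so each fit kept the Elmo1 UMIs of the other. The part of clusters 5, 7 and 8 together in the difference was not tested.

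Kcnt1 (chr2:25863734-25918273), a sodium-activated potassium channel, was at 43.5, 17.8, 46.8, 173 and 124 CPM, with a female minus male log2 difference of -2.18 ± 0.38 (SE, edgeR adjusted p = 0.0443). Both males were above all females. Pericytes held 27 Kcnt1 UMIs in all, at 1.44 to 12.8 CPM, and fibroblasts and endothelial nuclei were at 1.02 or lower. It lay in clusters 2 and 4: in cluster 2 alone it was at 172, 66.6, 126, 360 and 303, from 6, 7, 7, 37 and 20 UMIs. The higher male level was therefore also seen within cluster 2. In cluster 4 the values were 229, 91.2, 0, 378 and 183, and there nTg female 1 was above Tg male 2. The Kcnt1 difference was -2.42 without clusters 4 and 6 (edgeR adjusted p = 0.167) and -2.07 without clusters 7 and 8 (0.0524). With at least 3 of the 6 genes required the differences were 2.74 for Elmo1 (edgeR adjusted p = 0.256) and -2.22 for Kcnt1 (0.140), so neither passed while the sizes were close to the first ones.

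Both calls were lost when any of 3 libraries was left out. Without Tg male 1 the log2 differences were 2.50 for Elmo1 and -1.91 for Kcnt1 (edgeR adjusted p = 0.909 for both). Without Tg male 2 they were 2.94 and -2.38 (edgeR adjusted p = 0.471 and 0.190). Each of those fits has 1 male library, which is assumed to vary like the females. Without Tg female 1 the differences were 2.52 and -1.68 (edgeR adjusted p = 0.126 and 0.184). The direction and a difference of more than 2-fold were kept in all of these. Leaving out nTg female 1 gave 22 called genes of 5325 (0.413%), and leaving out Tg female 2 gave 62 of 6117 (1.01%). Leaving out Tg male 1 or Tg male 2 gave 4 each.

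**Figure D5:**
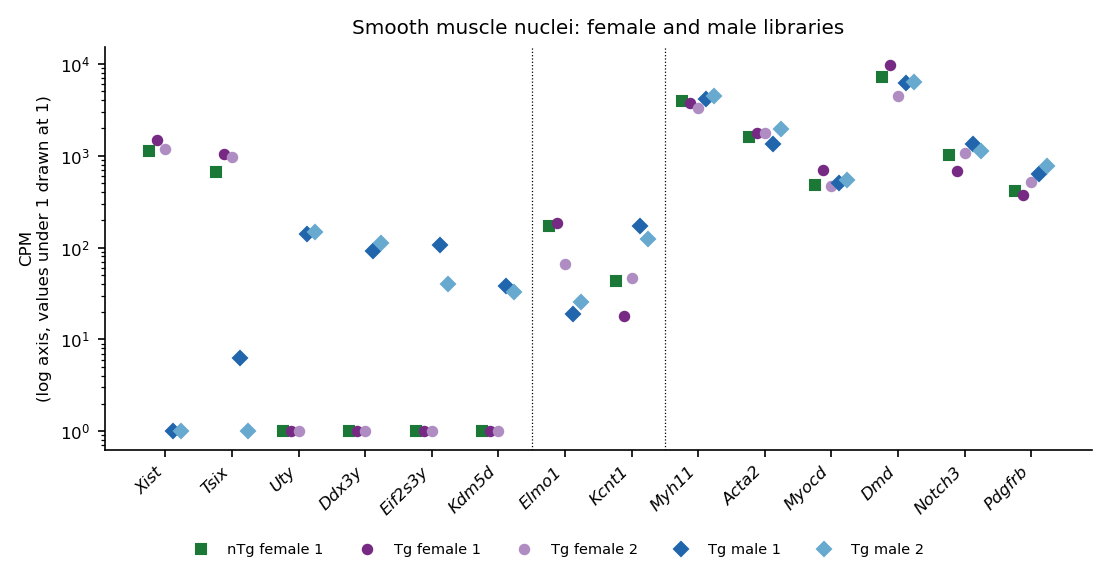
CPM (log axis, values under 1 drawn at 1) in the smooth muscle nuclei of the 5 libraries for 6 sex-linked genes, for Elmo1 and Kcnt1, and for 6 genes of smooth muscle or pericytes. Y-linked genes are at 0 in all females, Elmo1 and Kcnt1 separate the sexes without overlap, and Acta2, Myocd and Dmd overlap between them while Myh11 is just above in both males.

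The contractile genes did not pass the sex test. Among the 13 tested genes of myosin and its regulators and the 20 of the thin filament, none had an adjusted p under 0.05. These lists hold genes that chose the nuclei, such as Myh11 and Acta2, whose levels the rule conditions. The median log2 differences were -0.14 and -0.03, against 0.01 over all genes tested. Mylk differed by -0.14 ± 0.21, Tpm1 by -0.03 ± 0.23 and Myocd by 0.09 ± 0.24 (log2, SE), with edgeR adjusted p of 0.985, 0.999 and 0.994. A missed threshold does not show that the levels are alike. The 23 listed channels, 5 receptors, 16 cyclic nucleotide and 10 Notch genes gave no call either, nor did any list outside the sex-linked genes. The called potassium channel gene Kcnt1 is on none of these lists. At an unadjusted p under 0.05, matrix genes had 4 of 21 higher in females, Eln, Fbln5, Loxl1 and Col8a1, and 1 lower, Aspn. The TGF-beta, BMP and PDGF genes had 4 higher and 4 lower of 19, with Ltbp4 among the former and Bmp6 and Pdgfrb among the latter. The SRF and myocardin regulators had 3 of 12 higher, Fhl1 among them, and none lower. Among modulated genes Mgp, Col1a1 and Col3a1 were higher and Runx2 lower of 7 tested, with a median log2 difference of 0.86. Over all genes tested 3.87% were higher and 2.88% lower at that level.

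In the smooth muscle nuclei the summed markers of some other cell types lay apart between the sexes, and those of others overlapped. By single gene, every female library was above both males for 10.2% of the genes tested and below for 12.4%. The summed cardiomyocyte markers were at 2566 to 3719 CPM in females and 1961 to 2004 in males. In pericytes this sum was 2581 to 3124 in females and 1741 to 2444 in males. In fibroblasts it was 1876 to 2489 against 1665 to 1727, and in endothelial nuclei 2907 to 3302 against 2326 to 2616. The female sums were thus higher in these other types as well. The rule limits the level of Ttn and Trdn in the smooth muscle nuclei. In those nuclei 5 of 10 markers tested, Ttn, Trdn, Myh6, Tnnt2 and Mb, were higher in females at an unadjusted edgeR p under 0.05. The pericyte markers were at 1501 to 1718 in females and 2160 to 2546 in males, with Kcnj8, Pdgfrb and Steap4 of 9 tested lower in females at that level. The fibroblast sums were 721 to 1254 and 537 to 789, and the endothelial sums 294 to 702 and 270 to 364, with Pdgfra and Cdh5 at 0 by the rule. Endocardial markers, which include the cluster 5 gene Smoc1, were at 103 to 425 and 94.6 to 97.4. Macrophage markers were at 32.7 to 239 and 43.6 to 47.1, with Csf1r and Fcgr1 at 0. Their part in the sex differences was not tested.

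The sex difference was then compared between smooth muscle nuclei and pericytes of the same libraries, with the library as a block in edgeR. Of 10103 genes 8 (0.0792%) had an interaction at an adjusted p under 0.05, and 6.05% at an unadjusted p under 0.05. Mecom, a zinc-finger transcription factor, was at 498, 648, 131, 78.6 and 83.7 CPM in smooth muscle nuclei and at 184, 167, 70.3, 130 and 105 in pericytes, an interaction of 2.10 ± 0.32 (log2, SE, edgeR adjusted p = 0.00449). The female values were high in nTg female 1 and Tg female 1 and not in Tg female 2, and the interaction was 1.79 without Tg female 1 (edgeR adjusted p = 0.0867) and 1.87 without Tg male 1 (0.0881). It was 1.45 without cluster 5 (edgeR adjusted p = 0.0617), 2.25 without clusters 7 and 8 (0.0547) and 1.97 with at least 3 of the 6 genes required (0.0664), so the call was lost in these 5 settings. The count of such genes was 16 without nTg female 1, 1 without Tg female 1, 19 without Tg female 2, 2 without Tg male 1 and 21 without Tg male 2. Kcnt1 had an interaction of -2.57 that did not pass (edgeR adjusted p = 0.416), so its sex difference was not shown to differ between the types. In pericytes 6 of 10589 genes (0.0567%) were called between the sexes.

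The nTg library is single, so its smooth muscle nuclei are described without a test. Of 4084 genes 1.93% were at least 2-fold above the mean of the 4 Tg libraries and outside their range, and 1.49% were below. For each Tg library against the other 4, the counts ran from 87 to 232 higher and from 59 to 228 lower, against 79 and 61 for nTg female 1. The nTg library thus had the smallest count of higher genes and the second smallest of lower genes. Without Tg female 1 the counts for the nTg library were 150 and 93, and at a minimum of 100 CPM in place of 50 they were 13 and 11. Kcnq5, a voltage-gated potassium channel, was the list gene highest there, at 458, 129, 9.36, 6.29 and 0 CPM, and its level was 1806 in cluster 8 and 528 in cluster 5. Prg4 was at 84.4, 7.43, 0, 3.14 and 0, and the Schwann cell marker Cdh19 at 63.9, 11.9, 0, 3.14 and 3.64. Cdh19 was the first leading gene of cluster 8, at 476 CPM there against 0.556 in the other smooth muscle nuclei. Of the 12 nuclei of that cluster 3 came from nTg female 1. The 7 Schwann markers together summed to 76.7, 25.2, 4.68, 12.6 and 21.8 CPM. Ldb2, a LIM-domain cofactor, was lowest in nTg female 1, at 17.9, 138, 145, 94.3 and 171. Cacna1d and Ano1 were also below the Tg range. Cacna1d was highest in cluster 2, and Ano1 was at 1347 CPM in cluster 4, 887 in cluster 2 and 861 in cluster 6, of which 4 and 6 carry pericyte genes. No gene of the contractile lists met the criterion in either direction.

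Genes of the late cell cycle were near 0 in smooth muscle nuclei. Ccna2 had 2, 1, 2, 24 and 2 UMIs in the smooth muscle nuclei of the 5 libraries. The 24 in Tg male 1 lay in 2 nuclei of cluster 1, and 17 of them in 1 nucleus. Top2a, Ccnb1, Cenpf and Bub1, which act in mitosis, had no UMI in any of the 576 nuclei, which allows a share of nuclei with a UMI of up to 0.521%.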

How the data were processed

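Nuclei of adult mouse heart were profiled with 10x Genomics libraries. The deposited values are whole-number UMI counts per gene and barcode, made with Cell Ranger 7.0.0, per the file headers, on mm10, per the submitters' processing notes; the annotation and the treatment of doublets are not given in the sources used here. Each table lists 32285 genes. In 3 of the 8 libraries the matrix did not match its own barcode list and repeated another library, so those were not analysed here. Gene coordinates are those of GENCODE M21 (GRCm38).

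Counts were summed per library and type and scaled to CPM. Sex was tested with edgeR 4.0.16 (quasi-likelihood, TMM, filterByExpr, Benjamini-Hochberg), and DESeq2 1.42.0 (R 4.3.3), upper-quartile scaling, no filter, a genotype covariate, a replicate block, removal of doublets, stricter rules and left-out libraries were alternatives. Removing sets of clusters was added after seeing the data. Nuclei were clustered with scanpy 1.11.5 (15 components, 12 neighbours, resolution 0.8). Doublets were called with scrublet at an expected 6% but kept, and in Tg female 2 its automatic threshold failed, so the top 6% of scores were taken. On simulated counts of 6014 genes the sex test called 25.8% of 2-fold, 98.6% of 4-fold and 100% of 8-fold changes, and 8.38% of its calls were false. The simulation gave 167 calls against 7 in the data, and more true changes ease the adjusted threshold, so these shares need not hold for the data. In the data larger differences did not pass, such as Kdm5d at a log2 difference of -6.73 and Erbb4 at 5.37 (edgeR adjusted p = 0.164 and 0.176). Kdm5d is Y-linked. Erbb4 is a leading gene of cluster 5, and the part of that cluster in its difference was not tested.

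The rule for members, the 27 gene lists and the parts of the naming rule were chosen with earlier results of these data known. Named were rule and sex-linked genes, called genes, the list members with the highest levels or largest ratios, the 15 highest and 5 lowest ratios to pericytes, the 5 highest and 5 lowest nTg ratios, the 10 most overdispersed genes and the leading genes of clusters. Other genes were named after their values were seen. Results for some genes that the rule names are not reported here. Ratios to a pericyte level from few UMIs used a floor of 3 counts per library.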

Additional observations from a re-analysis of the deposited data

Results flagged for a closer look

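The sex difference in smooth muscle nuclei differed from that in pericytes for 8 genes, by the interaction test in edgeR with the library as a block, and 7 of them are given here. Each value below is the female minus male log2 difference in smooth muscle nuclei minus that in pericytes, with its SE and adjusted p.

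Itgbl1, an integrin-like secreted protein, had 3.66 ± 0.55 (edgeR adjusted p = 0.00449), from 204, 374, 9.36, 18.9 and 29.1 CPM in smooth muscle nuclei, and Mecom had 2.10 ± 0.32 (edgeR adjusted p = 0.00449). Both were high in nTg female 1 and Tg female 1 and not in Tg female 2, and Itgbl1 led cluster 5. Csmd1 had 4.55 ± 0.80 (edgeR adjusted p = 0.0235), and its smooth muscle level was 0, 90.6, 0, 3.14 and 7.27, so Tg female 1 alone was high. Elmo1 had 2.24 ± 0.44 and Pvt1, a long noncoding RNA gene, 3.07 ± 0.60, both with an edgeR adjusted p of 0.0422.

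Dgkg, a diacylglycerol kinase, had -3.72 ± 0.71 (edgeR adjusted p = 0.0422), with 146, 154, 136, 233 and 189 in smooth muscle nuclei and 0.72 to 12.8 in pericytes. Gm6249, a leading gene of cluster 4, had -1.87 ± 0.36 (edgeR adjusted p = 0.0422), from 51.1, 26.7, 136, 173 and 211. Both males lay above all females for both of these genes in smooth muscle nuclei, as they did for 12.4% of the genes tested there. The smooth muscle values of Dgkg were all within 2-fold of each other. Most of its interaction therefore lies in the pericyte sums, which held few Dgkg UMIs.

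Without Tg female 1 all 7 calls were lost, at edgeR adjusted p of 0.0867 to 0.999. The interaction was 3.47 for Itgbl1, 1.79 for Mecom, 2.02 for Elmo1, 2.90 for Pvt1, -3.78 for Dgkg and -1.41 for Gm6249, while that of Csmd1 turned to -1.39. Without Tg male 1 all 7 calls were lost as well, at edgeR adjusted p of 0.0564 to 0.804, in a fit with 1 male library, which is assumed to vary like the females. There the interaction was 2.95 for Itgbl1, 1.87 for Mecom, 4.25 for Csmd1, 1.52 for Elmo1, 3.99 for Pvt1, -3.28 for Dgkg and -2.07 for Gm6249, each in the same direction as before. Gm6249 and Pvt1 were also lost without nTg female 1, at -1.87 and 2.92 (edgeR adjusted p = 0.0558 and 0.0764), and without Tg male 2, again with 1 male library, at -1.68 and 2.45 (0.124 and 0.241). Dgkg was lost without Tg female 2, at -3.54 (edgeR adjusted p = 0.0668).

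With doublets removed Csmd1 was at 4.06 (edgeR adjusted p = 0.322) and Elmo1 at 1.97 (0.736), and the other 5 were called. With at least 3 of the 6 genes required, Itgbl1 alone of the 7 was called, and the other 6 kept their direction at edgeR adjusted p of 0.0585 to 0.173. Without cluster 5, the interaction of Itgbl1 was 1.92 (edgeR adjusted p = 0.485), and Csmd1 and Gm6249 were the genes of the 7 still called. Without clusters 4 and 6 only Itgbl1 and Mecom were called of the 7, and without clusters 7 and 8 only Itgbl1. The other 5 and 6 kept their direction, at edgeR adjusted p of 0.0594 to 0.347 and 0.0547 to 0.209.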

How the results depend on the processing

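The 7 genes called between the sexes, of 6014 tested, became 115 of 18133 with no filter on low counts and 28 of 6014 with the genotype label as covariate. They became 4 of 5280 with at least 3 of the 6 genes required and 4 of 4794 without clusters 4 and 6. They were 22 of 5325 without nTg female 1, 5 of 5292 without Tg female 1 and 62 of 6117 without Tg female 2. DESeq2 called 9, and Kcnt1 was not called with upper-quartile scaling (edgeR adjusted p = 0.0548) or the replicate block (0.0554). The replicate block gave 8 calls, 6 of them shared. No shared effect of the replicate numbers was seen, since the Tg female and Tg male differences between numbers 1 and 2 correlated at -0.04 over 6014 genes. That single correlation cannot show whether libraries of the same number were handled together. The 8 interaction genes became 46 with no filter, 2 with at least 3 of the 6 genes, 4 without cluster 5, 3 without clusters 4 and 6 and 1 without clusters 7 and 8, and 1 to 21 when a library was left out. The Csmd1 interaction ranged from -1.39 to 4.996 over the left-out libraries, with the reversal to -1.39 without Tg female 1 (edgeR adjusted p = 0.999). The nTg library had 13 genes above and 11 below the Tg libraries at a minimum of 100 CPM. With a Tg library left out it had 81 to 150 above and 59 to 93 below, with 150 and 93 without Tg female 1. The cause was not tested for any of these. Of the single-gene values 120 kept their call, 58 kept only their direction and 1 reversed. The 120 include most values of Xist, Tsix, Uty, Ddx3y and Eif2s3y. Nearly all of the 58 belong to Elmo1, Kcnt1 and the interaction genes, so the pooled counts do not describe the calls of those genes. The counts against pericytes stayed within 1.5 times under the alternatives run.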
